A study of Mus musculus with 31 samples.

Results

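Long intergenic noncoding RNA (lincRNA) intervals are meant as stretches of the genome between annotated genes that are read into RNA without a known protein product. Not all intervals of the array meet this, since some hold a probe of a named gene, also of a protein-coding one, on their own strand. The array of this study holds 16181 probes for 4607 such intervals, each named by its mm9 coordinates and a strand, F for forward or R for reverse. The intervals described here were chosen by detection: a probe was kept if, in 1 or more of the 8 groups, the scanner software marked all arrays of the group as well above background. That rule kept 10188 probes of 3927 intervals, out of 55681 probes and 34797 names on the whole array. By the same rule 40323 probes with 26887 names were tested, 30135 of these probes outside the lincRNA intervals.

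All mice had their ovaries removed when 4 weeks old, spent 3 weeks on normal chow and were then injected under the skin with castor oil. The uterus was taken 6 h later, so every group lacked ovaries and received the oil. Placebo (PLB) held 0 and treatment (E2) held 8 µg/kg of 17b-estradiol, the main natural estrogen. The groups were AF2 WT and AF2 KO on C57BL6/J and MISS WT and MISS KO on C57BL6/N, each with placebo and with E2, and 4 arrays were made for each, or 3 for AF2 KO E2. The labels do not describe the mutants. From what is known of these mice, ERα (the estrogen receptor α, gene Esr1) lacks activation function 2 in AF2 KO, the surface that binds coactivators after the hormone, and in MISS KO it cannot take up palmitate and so does not reach the cell membrane. The comparisons ask how much of the E2 response of these RNAs goes through the nuclear and through the membrane receptor. Line and substrain cannot be told apart, and in whole uterus fewer cells of a type and less RNA per cell cannot be told apart either.

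As background, lincRNAs are often spliced and capped like messenger RNAs but sit at lower levels and are more restricted to tissues. Some act in the nucleus on chromatin or on nearby genes, some host microRNAs or small nucleolar RNAs, and for most no role is known. ERα is a hormone-activated transcription factor that binds DNA, often far from genes, and drives growth, water uptake and secretion in the uterus. Transcription in both directions around such binding sites and past the ends of active genes is a known source of intergenic RNA.

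The 60-base probes of some intervals with large changes are shown first, since results below turn on them. They are a choice and not a ranking, as some probes not shown changed more. They are written 5′ to 3′ as the array files give them, on mm9, in lower case throughout. The first 4 rose with E2 and the other 4 fell.
chr8:124355710-124401160_R, probe at chr8:124397602-124397661, minus strand: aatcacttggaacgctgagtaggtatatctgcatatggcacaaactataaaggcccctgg
chr8:124648600-124731250_F, probe at chr8:124684059-124684118, plus strand: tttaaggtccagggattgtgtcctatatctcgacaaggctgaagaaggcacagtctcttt
chr8:13507348-13543773_R, probe at chr8:13539267-13539326, minus strand: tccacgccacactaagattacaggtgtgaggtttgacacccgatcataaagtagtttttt
chr1:73664661-73911040_R, probe at chr1:73664783-73664842, minus strand: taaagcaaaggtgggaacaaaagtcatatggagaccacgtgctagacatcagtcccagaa
chr8:10886200-10905925_F, probe at chr8:10905680-10905739, plus strand: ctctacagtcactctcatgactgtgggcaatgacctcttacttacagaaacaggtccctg
chr17:8025086-8026227_R, probe at chr17:8025168-8025227, minus strand: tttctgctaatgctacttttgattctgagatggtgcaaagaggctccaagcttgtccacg
chr15:102100964-102104552_F, probe at chr15:102104487-102104546, plus strand: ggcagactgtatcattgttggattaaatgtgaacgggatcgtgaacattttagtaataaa
chr13:28477490-28985604_R, probe at chr13:28502015-28502074, minus strand: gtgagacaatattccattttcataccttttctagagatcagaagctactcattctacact

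The intervals were dim. Levels are log2 of the processed intensity minus the 75th percentile of the same array, and the median over the 10188 interval probes was −3.47, against −0.72 over the 30135 other tested probes. The middle 90% of interval probes ran from −5.69 to 1.04, and the extremes were −7.41 and 8.84. Of the interval probes, 2277 (22.3%) lay at or above the median of all tested probes, which was −1.69. Of the lincRNA probes on the array 63.0% were kept, against 76.3% of the other probes. The 3927 intervals form 2906 loci once overlapping intervals of the same strand are joined, with 1967 on the forward and 1960 on the reverse strand. Their median length was 11.0 kb, against 7.78 kb for the 680 intervals that were not kept, and their median distance to the nearest tested named gene was 15.6 kb, against 27.6 kb. A probe of a named gene lay inside 665 intervals (16.9%), 986 lay within 10 kb of one, 1745 at 10 to 100 kb and 531 farther away. In 394 intervals the probe inside lay on the interval's own strand, and the gene was protein-coding in 168 of these and an lncRNA gene in 192.

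Detection was uneven between the groups, and it is what chose the members. Of the 10188 probes, 6767 were above background on all 31 arrays and 658 passed through a single group. AF2 KO E2, the group of 3 arrays, alone let in 346 probes, MISS WT E2 83 and MISS KO PLB 69, and each of the other groups between 4 and 66. Probes that passed through E2 groups alone numbered 640, and through placebo groups alone 307. Such probes had to differ between groups, so the counts over members below describe the intervals and are set beside the counts over all tested probes. By the number of arrays above background, the members just inside the rule were chr8:41730287-41746862_F on 3 arrays, and chr8:44232164-44267061_F and chr13:62580825-62596425_F on 4, all through AF2 KO E2. Just outside were chr16:92478986-92497610_F, chr8:47813487-47824869_F and chr11:50994911-51050704_F, above background on 21 arrays each.

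**Figure D1:**
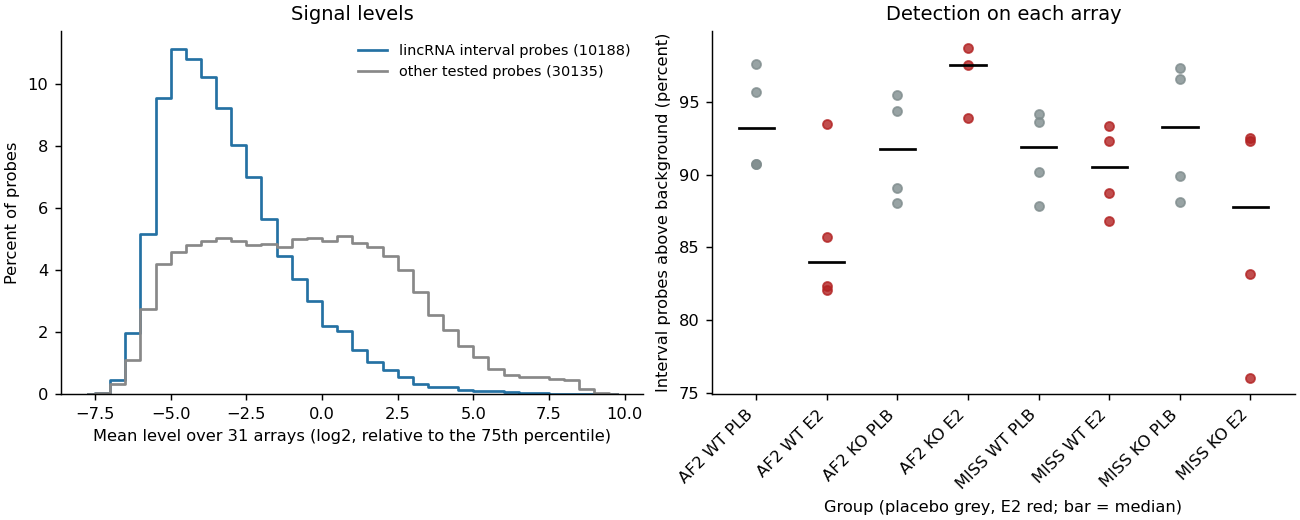
Left, the distribution of mean levels (log2 relative to the 75th percentile of the array) of the 10188 lincRNA interval probes and of the 30135 other tested probes, as percent of probes per bin. Right, the percent of interval probes well above background on each of the 31 arrays by group, on an axis that starts at 75, with bars at the group medians; the interval probes lie lower than the others, and the 3 AF2 KO E2 arrays lie between 93.9 and 98.7%.

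Across the series, array brightness, taken as the 75th percentile of processed intensity, ran from 535.8 to 1042, and 0 spots were saturated. Esr1, the gene altered in both lines, had 4 tested probes, and whether any lies in an altered stretch is not given in the sources used here. The brightest was lower in AF2 KO than in AF2 WT by 0.47 on the log2 scale with placebo (adjusted p = 0.0169). Another, chosen after its values were seen, stood at −1.31 to −1.13 on the AF2 KO placebo arrays and at 0.29 to 0.67 on the AF2 WT placebo arrays, a difference of −1.75 ± 0.14 (adjusted p = 1.25e-08), and on the same probe MISS KO and MISS WT differed by −0.00 ± 0.14. The summed level of 7 of 7 uterine marker genes was 5.54 to 6.12 over all arrays. That of 3 of 4 adipocyte marker genes varied within groups, from 0.67 to 6.46 in MISS KO E2 and from 1.26 to 5.59 in AF2 WT E2. Of 40 known estrogen target genes 39 were tested, and 31 rose and 3 fell with E2 in AF2 WT, 0 and 1 in AF2 KO (3 and 3 at an unadjusted p under 0.05 in the limma fit), 30 and 4 in MISS WT and 30 and 3 in MISS KO. Of 6 stromal marker genes 5 fell in AF2 WT, 2 in AF2 KO, 3 in MISS WT and 3 in MISS KO. Of 5 smooth muscle markers 4 rose in MISS WT, 3 in MISS KO and 0 in AF2 WT and AF2 KO. The part of these marker shifts in the interval results was not tested. Nothing in the labels says that the samples of a group came from separate mice, and p-values measure only the spread between these samples, which may be technical.

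E2 changed many intervals in both wild types. Changes are log2 fold changes of E2 against placebo ± the standard error (SE) of a limma model over all 40323 tested probes, and a probe was called where its p, adjusted after Benjamini-Hochberg over these probes, was under 0.05. In AF2 WT 1491 interval probes rose (14.6%, against 26.5% of all tested probes) and 3045 fell (29.9%, against 30.2%). In MISS WT 2508 rose (24.6%, against 33.8%) and 2264 fell (22.2%, against 26.9%). Rises were thus fewer among intervals than over the array in both wild types, and falls in AF2 WT stood near the background. The medians of change were −0.16 in AF2 WT and 0.15 in MISS WT, against −0.08 and 0.15 over all tested probes. Among the 2277 brighter interval probes 23.8% rose and 31.2% fell in AF2 WT, against 40.4% and 28.2% of the 17885 other probes of that brightness. The split of calls moved with the scaling: with the array median in place of the 75th percentile 2553 rose and 2217 fell in AF2 WT and 3024 and 1977 in MISS WT, and with quantile normalization 2295 rose and 2363 fell in AF2 WT. A median-scaled array moves the median of all tested probes in AF2 WT from −0.08 to 0.04.

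The wild types share no arrays. Interval probes that rose in both numbered 1223, or 82.0% of the 1491 in AF2 WT and 48.8% of the 2508 in MISS WT. Over all tested probes these shares were 90.8% and 71.2%. Those that fell in both numbered 1995, or 65.5% of the 3045 and 88.1% of the 2264, against 74.7% and 83.9% over all tested probes. Opposite calls were made for 135 of the 3353 probes called in both (4.03%, against 2.24% over all tested probes), 133 of them lower in AF2 WT and higher in MISS WT. Across the 10188 probes the responses of AF2 WT and MISS WT correlated at r = 0.78, against 0.86 over the other tested probes, as a description over probes that share arrays.

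The largest rise lay downstream of the probe of Slc7a5, the gene of the large neutral amino acid transporter LAT1. Its place relative to the end of the gene was not tested. The interval chr8:124355710-124401160_R is 45.5 kb long, starts 3.98 kb from the nearest Slc7a5 probe and runs on the same strand. Its probe shown above stood at −5.01, −4.89, −4.79 and −4.38 on the AF2 WT placebo arrays and at 2.67, 3.13, 3.33 and 3.61 on the AF2 WT E2 arrays. With MISS WT it stood at −5.93, −5.79, −5.20 and −4.97 with placebo and at 0.74, 1.23, 1.57 and 1.64 with E2. The lowest E2 array of either wild type was thus far above the highest placebo array. The change was 7.95 ± 0.26 (adjusted p = 1.08e-18) in AF2 WT and 6.77 ± 0.26 (adjusted p = 1.42e-17) in MISS WT, and the difference between them, −1.19 ± 0.36, was called (adjusted p = 0.0413). All 5 of its probes rose in both wild types, by 0.32 to 7.95 in AF2 WT.

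The large changes inside this interval lay in a short stretch, a locus looked at after its values were seen. Downstream of the Slc7a5 probe, the reverse-strand probes at 7.19 to 7.63 kb changed by 7.56 to 7.95 in AF2 WT and by 6.01 to 6.77 in MISS WT. On the first of them, at 7.19 kb, the MISS WT placebo arrays and all AF2 KO arrays were below background, and its rise in MISS WT was at least 61.2-fold. The stretch includes the probe of the small nested interval chr8:124397412-124398022_R, which changed by 7.56 and 6.01. The next reverse-strand probe, at 9.08 kb, changed by 0.32 ± 0.14 and 0.71 ± 0.14. On the forward strand of the same stretch, 5 probes at 6.92 to 7.34 kb rose by 1.56 to 2.96 in AF2 WT. Slc7a5 itself changed by 3.67 ± 0.18 and 4.33 ± 0.18, so the rise downstream was larger than that of the gene on its own probe. Klhdc4 at 84.9 kb changed by 1.76 and 2.02, and Banp, on the other side at −144.7 kb, by −0.04 and −0.01.

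**Figure D2:**
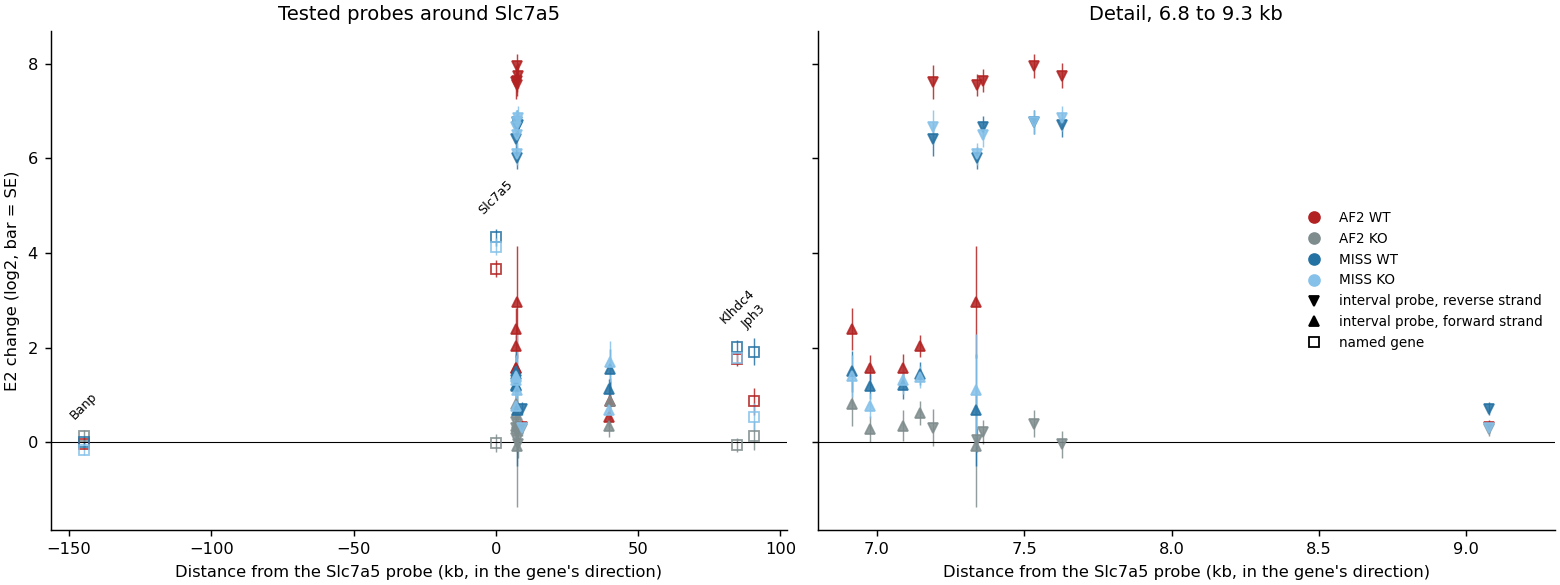
Change with E2 (log2 fold change, vertical axis) of each tested probe against its distance in kb downstream of the Slc7a5 probe, for the 4 genotypes; bars are the SE. The left panel spans the region with the named genes and the right one enlarges 6.8 to 9.3 kb. Reverse-strand interval probes at 7.19 to 7.63 kb rise by 6.01 to 7.95 in the wild types and change by −0.05 to 0.39 in AF2 KO.

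A rise from below background was seen at chr8:124648600-124731250_F, an 82.7 kb interval on the strand of Zfp469, a zinc finger gene 65.2 kb away. Its probe was above background on no placebo array of any genotype and on no AF2 KO E2 array. On the AF2 WT E2 arrays it stood at −0.10, 0.13, 0.34 and 0.41, and on the MISS WT E2 arrays at −1.90, −1.54, −1.23 and −1.16. The probe was kept through E2 groups alone, where it was high, so no p is given. The rise was at least 59.6-fold in AF2 WT and at least 22.4-fold in MISS WT. Such a bound sets the E2 mean against the dimmest signal still marked above background on each placebo array, or the probe's own value where higher. Zfp469 rose too, by 5.12 ± 0.18 and 4.36 ± 0.18. All 3 probes of the interval rose in both wild types.

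Other large risers included chr8:13507348-13543773_R and chr1:73664661-73911040_R. The former, 6.96 kb from 1700029H14Rik, stood at −1.82 to −1.43 on the AF2 WT E2 arrays. It was below background on all AF2 WT and MISS WT placebo arrays, a rise of at least 17.3-fold and 28.4-fold. It too was kept, on this probe, through E2 groups alone, so no p is given. All 4 of its probes rose, while 1700029H14Rik changed by −0.03 ± 0.39 in AF2 WT and rose by 1.12 ± 0.39 in MISS WT. The latter spans 246 kb beside Tns1, the gene of the focal adhesion protein tensin. It stood at −8.03, −6.22, −4.72 and −4.34 with placebo and at −3.02, −2.85, −2.50 and −2.13 with E2 in AF2 WT, a rise of 3.20 ± 0.86 (adjusted p = 0.00237). Only 2 of the 4 placebo arrays there were above background, so the size of this rise is not exact. In MISS WT the probe was below background on all placebo arrays and at −1.13 to −0.85 with E2, at least 30.7-fold higher (adjusted p = 7.21e-07). Placebo arrays of AF2 WT were spread over several log2 units here, yet lay wholly below the E2 arrays. Of its 3 probes 2 rose in AF2 WT and 3 in MISS WT, and another of them rose in AF2 KO by 1.84 ± 0.33 (adjusted p = 0.00227).

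The deepest fall was at chr8:10886200-10905925_F, which holds the lncRNA gene 4833411C07Rik. The probe stood at −0.77, −0.59, −0.56 and −0.52 with placebo and at −7.16, −7.07, −7.00 and −5.46 with E2 in AF2 WT. In MISS WT it stood at −1.63, −0.60, −0.26 and 0.29 with placebo and was above background on no E2 array. The fall was −6.06 ± 0.39 (adjusted p = 5.2e-13) in AF2 WT, where 1 E2 array was still above background, and at least 36.2-fold in MISS WT (adjusted p = 9.5e-15). All 3 probes fell in both wild types, and 4833411C07Rik on its nearest probe fell by 5.61 ± 0.27 and 6.57 ± 0.27.

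A 1.14 kb interval 81.8 kb from Fndc1, chr17:8025086-8026227_R, fell by 4.69 ± 0.46 in AF2 WT and 5.22 ± 0.46 in MISS WT. It stood at −1.11, −0.93, 0.08 and 0.29 with placebo and at −6.45, −5.02, −4.53 and −4.45 with E2 in AF2 WT. Its probes did not behave alike: 2 of 3 fell in either wild type, and the weakest changed by −0.52 and −0.10. The interval chr5:123439974-123448354_F, which holds the lncRNA gene A930024E05Rik, stood with placebo at −3.22 to −2.55 in AF2 WT and −2.75 to −2.30 in MISS WT and was below background on every E2 array of both, at least 6.26-fold lower in AF2 WT and 9.18-fold in MISS WT. Likewise chr15:102100964-102104552_F, which holds the lncRNA gene Gm9918, fell at least 11.3-fold and 13.0-fold. The 508 kb interval chr13:28477490-28985604_R lies 55.2 kb from Sox4, a transcription factor gene, and its probe fell at least 5.06-fold and 4.59-fold. Only 3 of its 4 kept probes fell, and 1 rose in MISS WT by 0.87, so the interval did not move as a unit. Sox4 itself fell by 1.56 ± 0.17 and 1.41 ± 0.17.

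**Figure D3:**
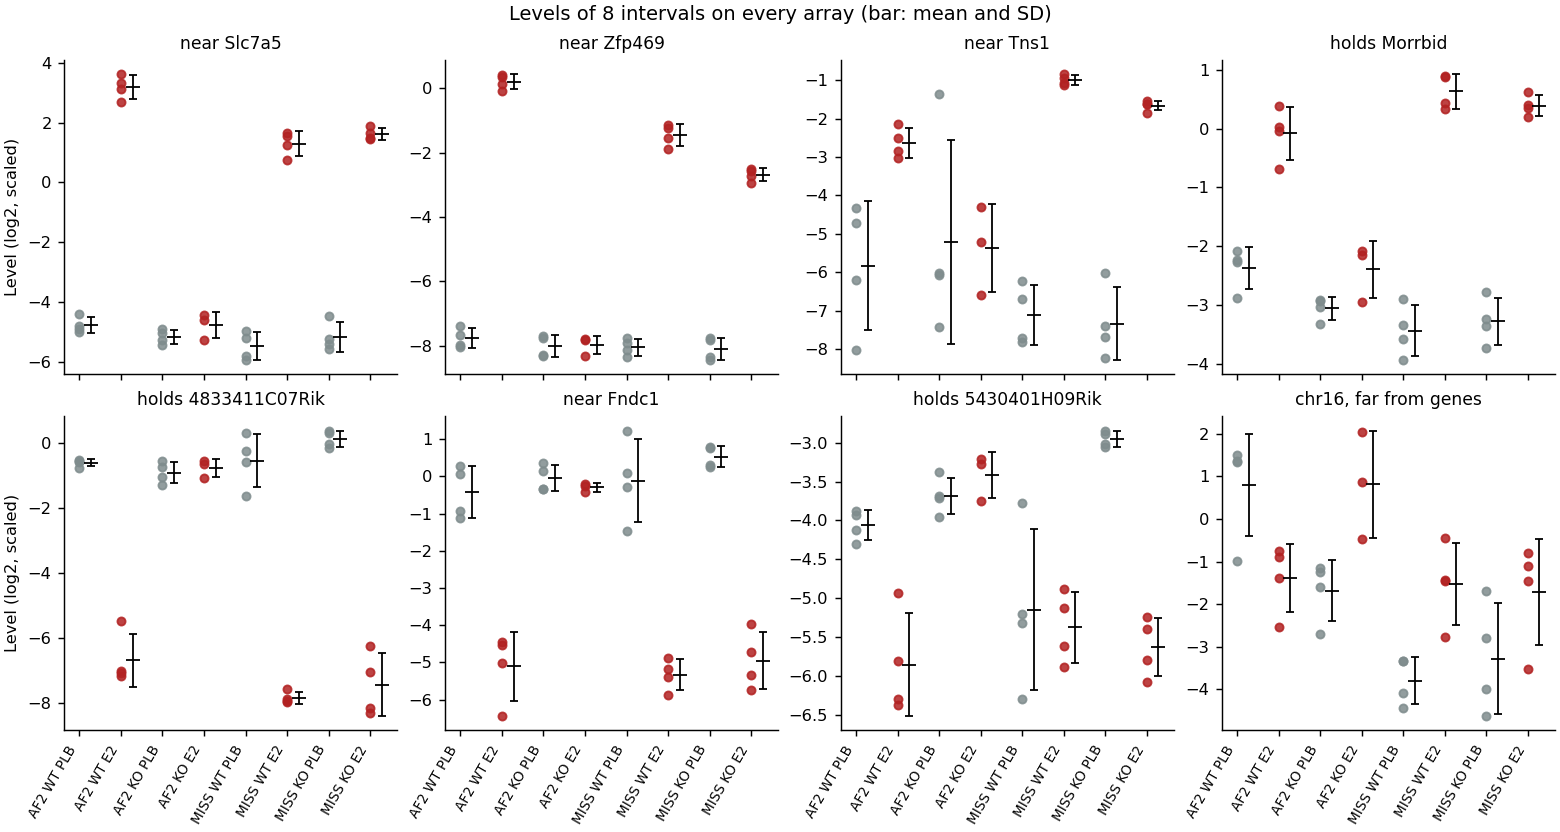
Level (log2 relative to the 75th percentile of the array) of the probe of 8 intervals on every array, by group, with the group mean and SD as a bar beside the points. In the interval near Slc7a5 the AF2 WT E2 arrays lie at 2.67 to 3.61 and the AF2 KO E2 arrays at −5.27 to −4.43, beside the placebo arrays.

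Of the 10 brightest interval probes most were not called. The highest mean level, 8.84, was that of chr19:5801802-5802597_R. It lies 6.03 kb from the probe of Malat1, an abundant nuclear lncRNA, on the same strand, and may share its transcript. The interval's probe changed by 0.01 in AF2 WT and by 0.30 in MISS WT. A second probe, at a mean level of 7.20, stood at 6.98 to 7.07 with placebo and 7.23 to 7.43 with E2 in MISS WT (0.32 ± 0.10, adjusted p = 0.00661, a call lost with quantile normalization and in the authors' matrix). Malat1 on its own probe, at a mean level of 2.93, rose by 1.15 in AF2 WT and 1.30 in MISS WT. Next came chr11:22681800-22707775_R at 8.19 and chr14:78924115-78938125_F at 7.58, with changes of −0.02 and 0.03 in AF2 WT. Both probes called in both wild types belonged to chr17:17481706-17482457_R, the brighter of which stood at 7.21 and rose by 0.71 in AF2 WT and 0.87 in MISS WT.

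In the AF2 mutant few interval probes were called. With E2 in AF2 KO 353 interval probes rose (3.46%, against 2.62% of all tested probes) and 6 fell (0.06%, against 0.379%). The probe next to Slc7a5 stood at −5.43, −5.26, −5.03 and −4.91 with placebo and at −5.27, −4.59 and −4.43 with E2, a change of 0.39 ± 0.28 (adjusted p = 0.539). The groups overlap there, as they do not in the wild type. The Zfp469-side interval was below background on all 7 AF2 KO arrays, and the 4833411C07Rik interval stood at −1.30 to −0.57 with placebo and −1.09 to −0.56 with E2. Of the 4536 probes called in AF2 WT, 17 were called the same way in AF2 KO (0.37%, against 0.46% over all tested probes) and 214 the opposite way (4.72%, against 3.06%).

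The difference between the responses, AF2 KO minus AF2 WT, was itself called for 3223 interval probes in the positive direction (31.6%, against 28.8% of all tested) and 883 in the negative (8.67%, against 21.4%). The response was smaller in AF2 KO and the difference called for 3461 of the 4536 probes called in AF2 WT (76.3%, against 79.9% over all tested probes). At chr8:124355710-124401160_R the difference was −7.56 ± 0.38 (adjusted p = 2.68e-14) and at chr8:10886200-10905925_F 6.21 ± 0.57 (adjusted p = 1.69e-09). Across interval probes the 2 responses correlated at r = −0.13 with a slope of −0.06, close to −0.14 over the other tested probes. The excess of positive over negative calls depended on the scaling, at 2012 to 1618 with quantile normalization and 1874 to 1788 with the array median.

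**Figure D4:**
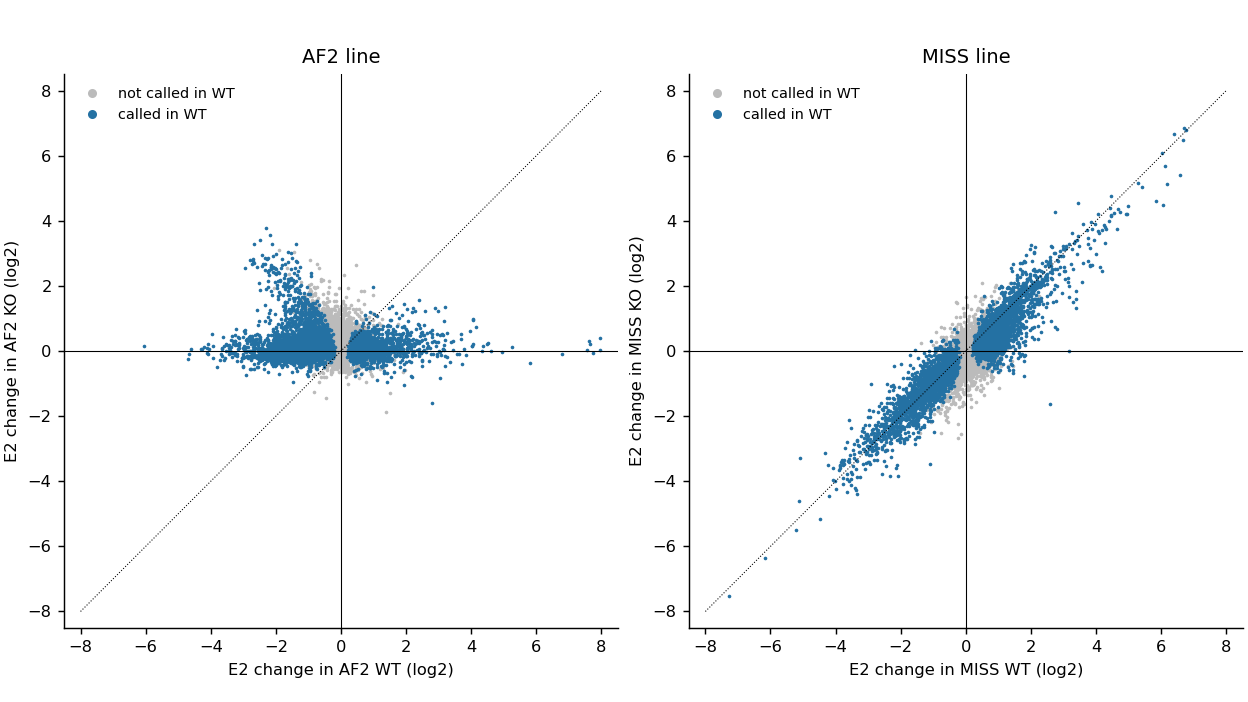
Change with E2 of each of the 10188 interval probes (log2 fold change) in the mutant against the wild type of its line, AF2 left and MISS right, on equal axes with the diagonal dotted and probes called in the wild type in blue. In the AF2 line the points lie along the horizontal axis (slope −0.06), and in the MISS line along the diagonal (slope 0.86).

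The 353 probes that rose in AF2 KO were mostly dim, like most interval probes (median −3.47). Their number moved with the arrays and the processing. Of the 353, 314 had a mean level under −2, and 210 were called lower with E2 in AF2 WT. Without AF2 KO E2 replicate 1 the calls in AF2 KO numbered 76, without replicate 2 193, without AF2 KO PLB replicate 2 209 and without replicate 4 238, against 359 with all arrays. They numbered 140 with quantile normalization (109 higher, 31 lower) and 83 with the array median, but 722 with the normexp background correction (712 higher) and 968 with the slide as a block (928 higher). Each of the 4 slides held 1 array of every group, except that 1 slide had none of AF2 KO E2. The olfactory, vomeronasal and taste receptor probes, genes not expected in uterus, moved alongside: their median level averaged −4.20 in AF2 KO E2 and −4.70 in AF2 KO PLB, and −4.28 in AF2 WT PLB and −4.53 in AF2 WT E2. The part of this shift among dim probes was not tested.

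The largest rise in AF2 KO was at chr6:67155508-67216941_R, 10.9 kb from Serbp1 on the other strand. Its probe was kept through AF2 KO E2 and AF2 WT placebo alone, where it was high, so no p is given. It was below background on all 4 AF2 KO placebo arrays and stood at −4.84, −3.88 and −3.52 with E2, at least 3.6-fold higher. In AF2 WT the order was turned, with −5.42, −4.18, −3.87 and −3.77 with placebo and no E2 array above background, at least 2.35-fold lower. Only 1 of the 4 kept probes of the interval rose in AF2 KO.

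In the MISS mutant many interval probes responded, most in the direction of its wild type. With E2 in MISS KO 1631 interval probes rose (16.0%, against 28.7% of all tested) and 2505 fell (24.6%, against 27.1%), and with the array median 2264 rose and 2009 fell. Of the 4772 called in MISS WT, 3359 were called the same way in MISS KO (70.4%, against 81.2% over all tested probes) and 12 the opposite way (0.25%, against 0.16%). The responses correlated at r = 0.91 with a slope of 0.86 over the interval probes, and at 0.94 over the others. The probe next to Slc7a5 stood at 1.45, 1.47, 1.66 and 1.87 with E2 in MISS KO and changed by 6.78 ± 0.26, against 6.77 in MISS WT, a difference of 0.01 ± 0.36. At chr8:10886200-10905925_F the fall was at least 53.1-fold in MISS KO, and the E2 arrays of both genotypes lay below background.

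The difference of responses, MISS KO minus MISS WT, was called for 17 interval probes in the positive direction (0.17%, against 0.203%) and 23 in the negative (0.23%, against 0.558%). In this fit, without the slide as a block, these shares are under those of the whole array, and 900 interval probes reached an unadjusted p under 0.05. With the slide as a block the total of 40 was 316, with 51 positive and 265 negative. The shares over all tested probes with the block are not given here. Without the block it was 21 without MISS WT PLB replicate 3, 22, 25 and 24 without MISS WT E2 replicate 1, 2 or 3, 25 and 23 without MISS KO PLB replicate 2 or 3, and 63 without MISS WT PLB replicate 4.

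The clearest of them was chr13:56851404-56851796_R, a 0.39 kb interval 7.77 kb from Smad5 on the other strand. With E2 it stood at −0.21, −0.18, 0.04 and 0.26 in MISS WT and at −2.41, −1.82, −1.69 and −1.60 in MISS KO, and with placebo at −3.75 to −3.20 and −3.53 to −2.89. The E2 arrays of the 2 genotypes do not overlap, and the placebo arrays do. The rise was 3.37 ± 0.24 in MISS WT and 1.31 ± 0.24 in MISS KO, a difference of −2.07 ± 0.34 (adjusted p = 0.00163). All 3 probes rose in both genotypes, and the difference was called for 2 of them. In AF2 WT the probe rose by 1.80 ± 0.24 and in AF2 KO it changed by −0.49 ± 0.26. At the Zfp469-side interval, where the placebo arrays of both genotypes were below background, the MISS KO E2 arrays stood at −2.94 to −2.50, all under the MISS WT E2 arrays, and the rise in MISS KO was at least 10.2-fold.

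At chr12:32781477-32808567_R, which holds the lncRNA gene 5430401H09Rik, the genotypes differed already with placebo. MISS WT placebo arrays stood at −6.30, −5.31, −5.20 and −3.78 and MISS KO placebo arrays at −3.05, −3.01, −2.89 and −2.84, a difference of 2.20 ± 0.35 (adjusted p = 0.00153). With E2 both stood low, at −5.88 to −4.88 and −6.07 to −5.25. The response was therefore −0.23 ± 0.35 (adjusted p = 0.587) in MISS WT and −2.68 ± 0.35 in MISS KO, and the difference, −2.45 ± 0.49 (adjusted p = 0.0126), was lost with quantile normalization, with the array median and with a fit of these groups alone. AF2 WT and AF2 KO stood at −4.30 to −3.38 with placebo. In all, 21 interval probes were higher (0.21%, against 0.315%) and 19 lower (0.19%, against 0.387%) in MISS KO than in MISS WT with placebo. Their total of 40 was 200 with the slide as a block, 17, 13 and 23 without MISS KO PLB replicate 1, 2 or 3, and 25, 8 and 122 without MISS WT PLB replicate 1, 3 or 4. At chr4:89032648-89133273_F, where no MISS WT and 2 of 4 MISS KO placebo arrays were above background, MISS KO was at least 1.21-fold higher (adjusted p = 0.0312), a call lost under 6 alternatives.

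With placebo, AF2 KO differed from AF2 WT mainly downward. Of the interval probes 100 were higher (0.98%, against 2.84% of all tested) and 691 lower (6.78%, against 5.21%). Of the 691, 577 had a mean level under −2, as most interval probes do (median −3.47). Of 8 epithelial marker genes 2 were higher and 1 lower in AF2 KO in this comparison, and their summed level was 7.64 to 7.99 on the AF2 KO and 7.07 to 7.46 on the AF2 WT placebo arrays; the part of this shift was not tested. The count of 791 was 473 without AF2 WT PLB replicate 1 and 454 without replicate 3. The split was 177 to 329 with quantile normalization and 145 to 234 with the array median, but 90 to 1447 with normexp and 202 to 1498 with the slide as a block. At chr15:60732209-60732822_R, a 0.61 kb interval, AF2 WT stood at −4.34, −4.31, −3.93 and −3.41 and no AF2 KO array was above background, at least 3.81-fold lower (adjusted p = 9e-05). The next were chr11:55315017-55322092_R (at least 9.09-fold lower), chr10:39383665-39442690_F (at least 4.85-fold), chr9:66976750-67014625_R (adjusted p = 2.87e-06) and chr7:66570691-66573827_R (−3.70 ± 0.43).

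Between the wild types with placebo, 114 interval probes were higher (1.12%, against 2.57%) and 1209 lower (11.9%, against 8.01%) in MISS WT than in AF2 WT. Of the 1209, 979 had a mean level under −2, as most interval probes do. The count of 1323 was 857 without AF2 WT PLB replicate 3, 2776 with normexp (2683 lower) and 2222 with the slide as a block (1947 lower). The split was 249 to 811 with quantile normalization and 149 to 743 with the array median. The chemosensory receptor probes averaged a median of −4.80 in MISS WT PLB and −4.28 in AF2 WT PLB. Of 6 immune marker genes 3 were higher and 0 lower in MISS WT with placebo. Their summed level was 2.81 to 4.07 there and 2.33 to 2.63 in AF2 WT. Of the other markers 1 uterine, 1 endothelial and 1 bladder gene were lower. The part of these shifts was not tested. The E2 responses of the wild types differed, MISS WT minus AF2 WT, in the positive direction for 588 probes (5.77%, against 5.6%) and in the negative for 95 (0.93%, against 2.55%), for 232 and 108 with the array median and for 1431 and 269 with the slide as a block. The AF2 WT placebo arrays enter these comparisons and that of AF2 KO with AF2 WT.

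A group of 3 forward-strand intervals on chromosome X, 40.1 to 48.0 kb from 4932411N23Rik, led these differences between the lines. They are chrX:123295327-123300036_F, chrX:123303474-123305531_F and chrX:123306246-123307974_F, with 7 kept probes. One pair of probes, from the last 2 intervals, is shown since they share a run of 25 bases, in capitals. Of the 21 pairs of these probes it is the 1 pair with a shared run of 15 bases or more.
chrX:123303474-123305531_F, probe at chrX:123304018-123304077, plus strand: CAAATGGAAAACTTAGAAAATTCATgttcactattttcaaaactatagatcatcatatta
chrX:123306246-123307974_F, probe at chrX:123307838-123307897, plus strand: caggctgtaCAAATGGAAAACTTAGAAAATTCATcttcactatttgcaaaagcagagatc

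The brightest probe of chrX:123306246-123307974_F stood at −1.88, −0.28, 0.14 and 0.20 on the AF2 WT placebo arrays and at −5.08, −3.30, −3.07 and −3.02 on the AF2 KO placebo arrays. On the MISS WT placebo arrays it was below background, at least 44.8-fold lower than in AF2 WT (adjusted p = 3.35e-07). With E2 the 4 genotypes stood at −3.55 to −2.06 in AF2 WT, −1.67 to −0.04 in AF2 KO, −3.68 to −1.80 in MISS WT and −4.26 to −2.01 in MISS KO. It thus fell in AF2 WT (−2.43 ± 0.63, adjusted p = 0.00171, a call lost with the array median), rose in AF2 KO (2.94 ± 0.68, adjusted p = 0.0156), and rose at least 8.37-fold in MISS WT (adjusted p = 1.05e-05). With that placebo group set at its bound, the wild-type responses differed by at least 5.50 on the log2 scale (adjusted p = 8.41e-05). The same order was seen at chr16:3111550-3130500_R, 462.8 kb from the nearest tested named gene. It stood at −0.99, 1.33, 1.37 and 1.51 with placebo in AF2 WT, at −4.43 to −3.33 in MISS WT and at −2.71 to −1.16 in AF2 KO, and MISS WT was lower than AF2 WT by 4.60 ± 0.69 (adjusted p = 6.01e-05). With E2 it stood at −0.47, 0.87 and 2.05 in AF2 KO. All 3 of its probes were lower in MISS WT and in AF2 KO than in AF2 WT with placebo.

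Several probes of an interval often did not agree. Among the 2704 intervals with more than 1 kept probe, all probes rose in 175 and all fell in 482 with E2 in AF2 WT, 86 held probes called in both directions, and 922 held no call. The counts were 294, 358, 110 and 831 in MISS WT, 195, 382, 73 and 1069 in MISS KO, and 18, 0, 0 and 2461 in AF2 KO. Intervals that rose in all 3 of AF2 WT, MISS WT and MISS KO on at least 1 probe numbered 524, and those that fell 811. An interval with more kept probes has more chances to enter these counts. No such counts over other genes are given here, so they do not set intervals apart.

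The opposite strands of an interval responded with little likeness. For 863 intervals both strands were kept, out of 1067 with probes for both. With E2 in AF2 WT, both strands rose in 31, both fell in 59 and they were called in opposite directions in 38, with 1 strand called in 404. In MISS WT these counts were 91, 29, 53 and 392. Spearman's rho between the strands was 0.23 in AF2 WT, 0.19 in MISS WT and 0.23 in MISS KO, as a description over intervals on shared arrays. At chr17:12990484-13018375, which holds Airn, the imprinted antisense RNA of Igf2r, the F probe fell and the R probe rose. On the F strand the AF2 WT arrays stood at 2.91, 3.03, 3.08 and 3.19 with placebo and 1.06, 1.36, 1.41 and 1.45 with E2 (−1.74 ± 0.12, adjusted p = 1.66e-12). The R strand, given here for MISS WT and so for other arrays, stood at −4.49 to −4.15 with placebo and −2.98 to −2.70 with E2 (1.43 ± 0.26, adjusted p = 3.97e-05). It was dimmer throughout. At chr5:122047900-122065325, which holds Acad12, an acyl-CoA dehydrogenase gene on the R strand, the R probe fell by 3.05 ± 0.32 in AF2 WT and at least 6.36-fold in MISS WT, and the F probe rose by 1.75 ± 0.37 and 1.19 ± 0.37 on the log2 scale. The F strand there held 4 kept probes, of which 1 rose.

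Intervals moved with the nearest named gene when they lay close to its probe on the same strand. Where an interval held a probe of the gene on its own strand, Spearman's rho between their changes was 0.64 in AF2 WT and 0.68 in MISS WT (394 pairs). It was 0.48 and 0.41 up to 10 kb (579 pairs), 0.24 and 0.20 at 10 to 100 kb (929 pairs) and 0.18 and 0.27 at 100 to 500 kb (244 pairs). On the opposite strand it was 0.26 and 0.30 inside (271 pairs), 0.20 and 0.20 up to 10 kb, and 0.03 and 0.03 at 10 to 100 kb. Neighbouring named genes on the same strand within 10 kb of each other gave 0.28 and 0.26 (843 pairs), under the intervals at that distance. When interval and gene were both called in AF2 WT, the direction was the same for 180 of 198 pairs (90.9%) inside on the same strand and for 52 of 76 (68.4%) on the opposite strand. These values describe pairs that share arrays. An interval that holds the gene's probe on its own strand may measure the gene's transcript, and in 168 of the 394 pairs the gene was protein-coding. Distances run to the gene's probe and not to its end, so intervals up to 10 kb away may also share its transcript. Of those 579 same-strand pairs 450 lay on the 3′ side. In AF2 KO rho was 0.25 inside on the same strand and 0.07 up to 10 kb, where few pairs hold a call.

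**Figure D5:**
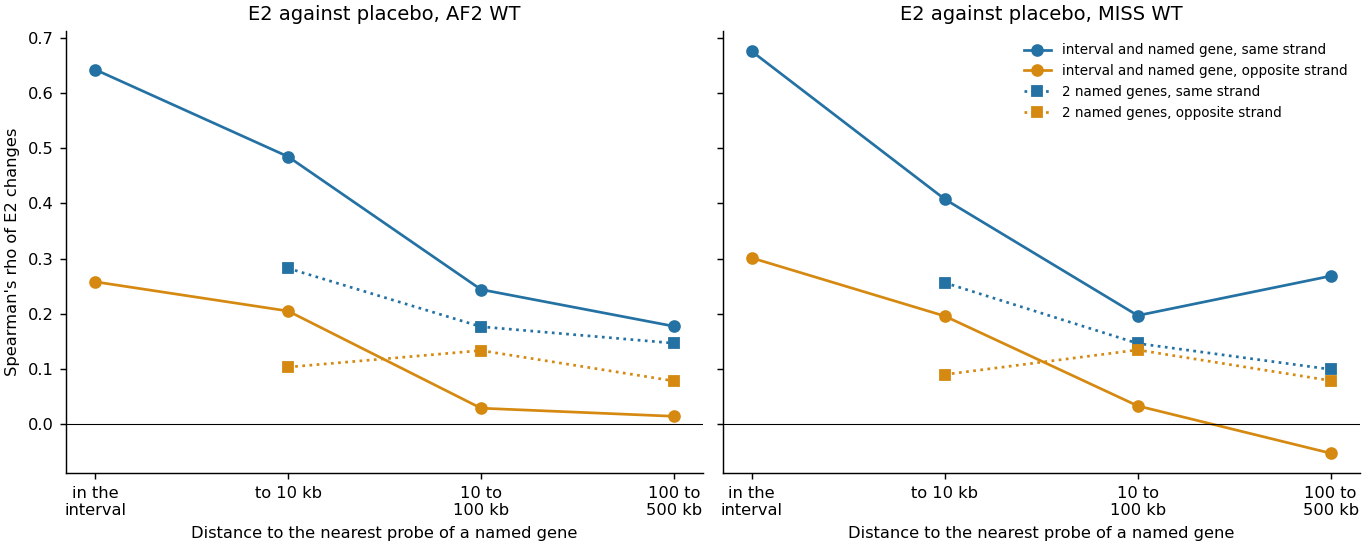
Spearman's rho between the E2 change of an interval and that of its nearest named gene, by strand and distance to the gene's probe, in AF2 WT and MISS WT, with pairs of named genes for comparison. On the same strand rho falls from 0.64 and 0.68 inside the interval to 0.24 and 0.20 at 10 to 100 kb.

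Intervals that hold well-studied noncoding RNAs followed these genes unevenly. Of 60 named noncoding RNAs 39 had a tested probe of their own, and 15 rose and 12 fell in AF2 WT (38.5% and 30.8%, against 26.5% and 30.2% of all tested probes), 0 and 0 in AF2 KO (1 and 0 at an unadjusted p under 0.05 in the limma fit), 15 and 13 in MISS WT and 12 and 15 in MISS KO. Morrbid, a lncRNA known for control of myeloid cell survival, rose by 2.08 and 2.61 in the wild types, and the 207 kb interval around it, chr2:127988295-128194920_R, by 2.30 ± 0.24 and 4.07 ± 0.24. That interval stood at −2.88, −2.28, −2.24 and −2.09 with placebo and at −0.69, −0.04, 0.03 and 0.39 with E2 in AF2 WT, and at −3.94 to −2.89 and 0.34 to 0.89 in MISS WT. No array overlapped between treatments, all 4 probes rose in both, and the rise was larger in MISS WT by 1.77 ± 0.35 (adjusted p = 0.00182). Around Gas5, a host gene of small nucleolar RNAs, chr1:162965309-162970704_F rose by 2.43 ± 0.17 and 2.59 ± 0.17, while chr1:162965001-162966376_F changed by −0.27 ± 0.19 and 0.66 ± 0.19. Gas5's own probes disagreed, with 0.46 on the brightest and 2.74 ± 0.11 on another in AF2 WT.

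Mir17hg, the host of the miR-17 cluster, rose by 1.21 and 1.30, and of its intervals chr14:115443612-115445950_F rose by 1.20 and 1.27 while the longer chr14:115423660-115463160_F changed by 0.04 and −0.35. The interval chrX:47893703-47996700_R at Firre, a nuclear-organisation lncRNA, fell by 1.17 and 1.51, and chr17:13008796-13023201_F at Airn by 2.47 and 2.44. At Dleu2, chr14:62294849-62301165_R fell by 1.43 and 1.45 with the gene (1.16 and 1.29), whereas chr14:62263564-62307496_R rose by 0.55 and 0.69 on the same strand, so its intervals did not move as a unit. The intervals of Tug1 on its strand changed by −0.32 to 0.18 in AF2 WT without a call. At Malat1 and Neat1, chr19:5771425-5848475_R rose by 1.19 and 1.23.

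Intervals near estrogen target genes were called in AF2 WT at shares close to those of all interval probes. A kept interval lay within 100 kb of 15 of the 39 tested target genes, and the nearest of them rose in 2 and fell in 4 cases in AF2 WT (13.3% and 26.7%, near the 14.6% and 29.9% of all interval probes), 0 and 0 in AF2 KO (4 and 1 at an unadjusted p under 0.05 in the limma fit), 3 and 4 in MISS WT and 3 and 3 in MISS KO, with medians of 0.16, 0.17, 0.33 and 0.01. Over the list of genes itself the medians were 2.43, 0.09, 2.56 and 2.58. Near Myc, chr15:61870759-61938796_F rose by 0.66 and 1.31 in the wild types with the gene (1.19 and 1.68). At 0.663 kb from Wnt4, a secreted growth factor gene, chr4:136856064-136877219_R rose by 1.19 and 1.12 at a level of 5.85; it lies on the other strand and holds a probe of Cdc42, a small GTPase gene, on its own. By contrast chr6:67016874-67030651_F, 31.4 kb from the cell cycle brake Gadd45a, fell by 0.85 and 1.16 while the gene rose by 3.46 and 3.01. The intervals by Jun (−1.04 and −1.71) and Ihh (−0.995 and −1.21) fell as well.

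Some kept probes lie upstream of gene starts. Of 32851 RefSeq promoter windows (GRCm38.p6), each from 250 bases before to 50 after a gene's start, 83 held a whole kept probe, which came to 115 probes of 95 intervals, 53 in the direction of the gene and 66 against it. The first kind changed somewhat like the gene (Spearman's rho 0.61 in AF2 WT and 0.40 in MISS WT, 36 probes of 25 genes), and for the second rho was 0.19 and 0.12 (39 probes of 35 genes). The estrogen response element GGTCANNNTGACC, a palindrome and so the same on both strands, is in 23 of all windows (0.0700%) and in 0 of the 83, which says only that these letters are not there. An example of each kind, picked after their values were seen, is given as the 250 bases before the start, with the probe's place in capitals. Before Lockd, a lncRNA gene downstream of Cdkn1b, chr6:134879009-134880130_F fell by 2.96 and 2.07 in the wild types, and the gene by 2.74 and 3.67. Before the lncRNA gene 4933433H22Rik, chr17:84470764-84486339_R on the opposite strand fell by 1.66 and 2.15, and the gene changed by −0.04 and 0.10.
Lockd, chr6:134928842-134929091, plus strand: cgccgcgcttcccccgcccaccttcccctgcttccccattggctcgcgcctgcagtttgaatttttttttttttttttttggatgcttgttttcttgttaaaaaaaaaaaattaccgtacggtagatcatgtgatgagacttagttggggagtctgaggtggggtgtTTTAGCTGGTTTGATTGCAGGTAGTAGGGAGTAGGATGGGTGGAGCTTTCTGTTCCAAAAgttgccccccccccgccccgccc
4933433H22Rik, chr17:84078410-84078659, plus strand: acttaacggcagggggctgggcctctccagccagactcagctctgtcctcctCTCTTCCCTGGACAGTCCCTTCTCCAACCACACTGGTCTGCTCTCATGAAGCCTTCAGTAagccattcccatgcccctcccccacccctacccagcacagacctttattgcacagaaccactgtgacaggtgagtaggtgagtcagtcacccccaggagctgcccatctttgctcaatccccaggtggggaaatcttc

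A search of 1005 RefSeq microRNA hairpins found 4 kept probes that share at least 25 bases with one. They are shown because these intervals overlap microRNA precursors by sequence. The shared bases are in capitals, on mm9.
Mirlet7c-2 in chr15:85412264-85549139_F, probe at chr15:85537022-85537081, plus strand: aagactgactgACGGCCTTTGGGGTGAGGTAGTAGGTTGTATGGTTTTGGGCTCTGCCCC
Mirlet7c-2 in chr15:85412264-85549139_F, probe at chr15:85537092-85537151, plus strand: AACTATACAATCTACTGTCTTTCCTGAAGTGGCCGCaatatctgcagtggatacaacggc
Mir8110 in chr8:91471819-91551119_F, probe at chr8:91548632-91548691, plus strand: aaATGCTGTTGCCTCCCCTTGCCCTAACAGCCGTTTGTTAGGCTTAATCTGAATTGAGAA
Mir410 in chr12:110973190-110987668_F, probe at chr12:110981965-110982024, plus strand: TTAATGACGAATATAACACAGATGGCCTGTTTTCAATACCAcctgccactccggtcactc

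The Mirlet7c-2 probes, from a let-7 family precursor, share 49 and 36 bases with it. The first changed by −0.18 ± 0.19 in AF2 WT and −0.31 ± 0.20 in AF2 KO, and rose by 0.44 ± 0.19 in MISS WT (adjusted p = 0.0452) and 0.97 ± 0.19 in MISS KO (adjusted p = 6.46e-05). The second rose by 1.22 ± 0.24 in MISS KO and changed by 0.52 ± 0.24 in MISS WT (adjusted p = 0.0669). The Mir410 probe rose by 0.51 ± 0.18 in MISS WT (adjusted p = 0.0154), and the Mir8110 probe changed by −0.33 to 0.21 in the 4 genotypes with no call.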

How the data were processed

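Uterine RNA of 31 samples was hybridised to 1-colour Agilent arrays and scanned signals were extracted with Feature Extraction 10.10.1.1 (Agilent) in the authors' hands, per the submitters' processing notes. Per the file headers, the processed signal is a background-subtracted, detrended intensity with surrogates for dim spots, not normalized between arrays, and other columns hold 0/1 marks for outliers and for signal well above background. The authors' deposited series matrix holds log2 values made by steps not given in the sources used here, and served as an alternative. Outlier spots were set missing and spots of a probe averaged. Levels are log2 intensity minus the array's 75th percentile, fitted with limma 3.58.1 (lmFit, eBayes) in R 4.3.3 with a mean per group (23 residual degrees of freedom) and Benjamini-Hochberg adjustment over 40323 probes. The script was tested on simulated data. The number of arrays limits the precision.

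Members and lists were chosen with earlier results of these data known. Intervals named are the 8 largest called rises and falls with E2 in each wild type and the 5 largest of the other 8 contrasts with the same sign on every slide, the 10 brightest, the nearest to listed estrogen targets, those holding listed noncoding RNAs, the 5 largest opposite-strand pairs and the 3 at either edge of the rule. The 357 probes on chromosome 18 are counted but not reported singly. Gene positions are those of the array annotation (mm9), symbols those of RefSeq where the accession matched (31399 of 39500 other probes), and promoter and hairpin sequences those of RefSeq, GRCm38.p6. Alternatives were other background correction, scaling, filters, the slide as a block, 1 probe per name, fewer groups, and leaving out each array.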

Additional observations from a re-analysis of the deposited data

Results flagged for a closer look

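Of 175 groups of 4 arrays examined, 6 held an array far from the other 3, and chance flags about 1 in 20. The values examined were those of the shown intervals and the median level and detected share of all interval probes on each array. At chr8:13507348-13543773_R the highest MISS KO E2 array stood at −1.36, with the next at −1.96. At chr8:10886200-10905925_F the highest AF2 WT E2 array stood at −5.46, with the next at −7.00. At chr13:28477490-28985604_R the lowest MISS KO PLB array stood at −4.23, beside −4.12, and the highest MISS WT E2 array at −7.49, beside −7.84. The MISS WT E2 arrays are all below background there, so that flag says nothing of a level. The lowest AF2 KO PLB array stood at −5.08, beside −3.30, at chrX:123306246-123307974_F, and the lowest AF2 WT PLB array at −0.99, beside 1.33, at chr16:3111550-3130500_R.

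Responses to E2 that differed between genotypes or lines, by the limma test of the difference, came to 4106 interval probes for AF2 KO minus AF2 WT, 40 for MISS KO minus MISS WT and 683 for MISS WT minus AF2 WT. In the first, the largest fitted differences included −7.92 at chr8:124648600-124731250_F, which gives no size since the AF2 WT placebo arrays and all AF2 KO arrays are below background there. The others were −7.56, −7.80 and −7.43 on 3 probes of chr8:124355710-124401160_R, and −7.52 at chr8:124397412-124398022_R. In the second they were −2.45 at chr12:32781477-32808567_R, −2.07 at chr13:56851404-56851796_R, −1.90 at chr5:113594167-113645342_R (bound −1.08, since the MISS KO E2 arrays are below background), −1.89 at chr1:160888257-160910594_R and −1.64 at chr11:104304424-104329824_R. In the third, the MISS WT placebo arrays are below background at all 5, so the fitted values are not exact and have no order. They were 6.86 (bound 4.82) at chrX:123295327-123300036_F, 4.68 (bound 2.51) at chrX:123303474-123305531_F, 6.17 (bound 5.50) at chrX:123306246-123307974_F, 4.86 (bound 2.81) at chr15:60732209-60732822_R and 4.77 (bound 2.96) at chr1:73664661-73911040_R. A bound is the difference with the dim group set at the dimmest signal still marked above background on each array, or at the probe's own value where higher.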

How the results depend on the processing

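Pairing by replicate number was not possible, because these numbers follow the order of deposition and tie no samples together. The slide, which held 1 array of nearly every group, was left out of the main fit and fitted as a block as an alternative. Of 199 calls at named intervals, 199 were kept with the slide as a block. Others were lost as follows: 28 with quantile normalization, 27 with the array median, 20 with only the compared groups, 17 with normexp, 15 in the authors' matrix (10174 of the probes) and 14 with no filter. Signs turned in 3: chr12:32781477-32808567_R on its second probe in MISS WT (0.044 with normexp), and chr15:62046023-62082530_F in AF2 WT (0.020) and MISS WT (0.012) with the array median. The causes were not tested.

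Counts of called interval probes that moved by over 1.5 times were, with normexp, 722 in AF2 KO, 1537 for AF2 KO against AF2 WT with placebo and 2776 for MISS WT against AF2 WT with placebo. Normexp also split MISS WT calls into 3539 higher and 1641 lower. With quantile normalization they were 140 and 506 in the first pair, and the difference MISS KO minus MISS WT split into 23 higher and 14 lower. With the array median they were 83 in AF2 KO, 15 for MISS KO minus MISS WT, 379 and 10 for the placebo comparisons within AF2 and MISS, and 340 for MISS WT minus AF2 WT. The authors' matrix gave 214 in AF2 KO and 63 for the MISS placebo comparison, and split AF2 WT calls into 2282 higher and 2380 lower. No filter gave 25 for MISS KO minus MISS WT and 22 for the MISS placebo comparison. The slide as a block gave 968 in AF2 KO, 316 for MISS KO minus MISS WT, 1700 for MISS WT minus AF2 WT, and 1700, 200 and 2222 for the placebo comparisons AF2, MISS and between lines. Only the compared groups gave 143 in AF2 KO, 19 for MISS KO minus MISS WT, and 0 and 769 for the placebo comparisons within MISS and between lines; by limma that 0 stands beside 902 at an unadjusted p under 0.05, and the other settings gave 10 to 200.

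A strict filter, with 2277 probes by construction, gave 1297, 29, 1397 and 1260 with E2 in AF2 WT, AF2 KO, MISS WT and MISS KO, 1110, 26 and 159 for the differences AF2, MISS and between wild types, and 157 and 236 for placebo within AF2 and between lines. With 1 probe per name, 3927 probes, the counts were 1648, 175, 1751, 1472, 1550, 14, 313, 323 and 612 in the same order, and 17 for the MISS placebo comparison. Likeness to neighbours was 0.13 in AF2 KO over brighter pairs, and 0.41 and 0.43 in MISS WT and MISS KO within 10 kb; opposite-strand pairs numbered 9, 7 and 6 over brighter pairs in AF2 WT, MISS WT and MISS KO.

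Leaving out each array in turn gave 4218 to 4552 in AF2 WT, 76 to 398 in AF2 KO, 4278 to 4849 in MISS WT, 3803 to 4039 in MISS KO, 3563 to 4164, 21 to 63 and 457 to 855 for the differences AF2, MISS and between wild types, and 454 to 976, 8 to 122 and 857 to 1495 for placebo within AF2, within MISS and between lines. Signal over background limits the probes outside the 6767 that were above it on all 31 arrays: a group below background gives only a bound.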
